A study of Homo sapiens with 6 samples.

Results

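The MYC, MAX and MXD network was examined after an siRNA against BATF3 in L428, an established cell line of human Hodgkin lymphoma. The network was taken as 10 genes: MYC, MYCN, MYCL, MAX, MXD1, MXD3, MXD4, MXI1, MNT and MGA. The array annotation assigned 41 of 49293 tested probe sets to these symbols alone, and all 10 genes were among the 18244 measured. Cells labelled BATF3_siRNA received an siRNA against the transcription factor BATF3, and cells labelled Negative_Control_siRNA received a control siRNA. All were nucleofected with 3 µg of siRNA and cultured for 48 hours, and each group had 3 arrays. The groups used here hold 1 cell line and 1 siRNA condition for BATF3. Nothing in the labels says that the 3 arrays of a group came from separate cultures, so the p-values measure a spread that may be technical.

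MYC proteins activate transcription as heterodimers with MAX, through a basic helix-loop-helix leucine zipper that binds E-box DNA (CACGTG). MXD proteins, MXI1 (a member of the same family), MNT and MGA compete for MAX and bind the same sites, where they recruit corepressors. The balance of MYC against these antagonists is known to set growth and differentiation programmes in lymphoid cells. BATF3 pairs with JUN proteins at AP-1 sites, and MYC has been studied downstream of BATF3 in Hodgkin lymphoma.

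No member passed the test at the gene level or in any of its probe sets. Among genes the share called was 0.0164% (3 of 18244), and among probe sets it was 0.0101% (5 of 49293). At an unadjusted p under 0.05 limma gave 2 member genes, MYCN and MXD1, where 7.15% of all genes did so, and 3 of the 41 member probe sets (7.32%), where 7.17% of all probe sets did so. The member changes lay between −0.29 and 0.32 on the log2 scale. MYCN and MXD1 stood at those ends. With the probe set of highest mean for each gene, MYC, MYCN, MYCL and MAX read slightly lower after BATF3 siRNA. By the same choice 4 of the 6 antagonists read higher, where 49.0% of all genes did so. These directions depended on the probe set. Averaged over each gene's probe sets, MYCL (0.019) and MAX (0.038) read higher and MGA (−0.014) lower. The other members kept their direction, MYCN at only −0.0052. For MYC, MYCN, MXD1 and MGA the values of the siRNA groups did not overlap. That is 4 of 10 members, where 12.1% of all genes had separate groups. Across the 41 probe sets the count was 7, or 17.1%, against 12.2% of all probe sets.

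Short stretches upstream of 3 members are shown because they hold a match to a motif of the factors involved. The RefSeq promoter table (GRCh38.p14) held 14 windows for 9 of the members. MYC had no window there, so its promoter was not searched. In each the 250 bases before the gene start were searched on both strands for CACGTG, the E-box of MYC and MAX dimers, and for TGANTCA, the AP-1 core bound by BATF and JUN dimers. Capitals mark the match, and each sequence reads 5′ to 3′ on the gene's strand, which is the minus strand for all 3.
MXD4, chr4:2262312-2262359: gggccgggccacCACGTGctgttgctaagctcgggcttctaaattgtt
MNT, chr17:2401218-2401283: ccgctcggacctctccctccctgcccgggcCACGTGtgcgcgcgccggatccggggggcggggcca
MXD3, chr5:177312795-177312861: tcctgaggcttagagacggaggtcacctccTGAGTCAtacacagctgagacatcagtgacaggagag
The match began 238 bases before the start in MXD4, 193 in MNT and 79 in MXD3. CACGTG was present in 6.34% of all 35116 windows and TGANTCA in 6.57%. The longer site TGACGTCA was in 0 of the 14 member windows and in 1.65% of all windows. A match is a description of these letters, and its use in these cells was not measured.

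BATF3, the target of the siRNA, read 10.87, 10.76 and 10.69 in the BATF3 siRNA arrays (replicates 1, 2 and 3) and 11.89, 12.08 and 11.94 in the controls. The mean fell by 1.20 (log2; SE 0.095; limma adjusted p = 0.00673), to 0.436 of the control level. Its adjusted p was 0.0688 without BATF3 siRNA replicate 3 and 0.0648 without control replicate 2. The cell line label was set against markers. The 11 genes listed for Hodgkin lymphoma include BATF3 and MYC, which are under study here. Of the 11, 9 lay above the highest array background probe set on all 6 arrays, with BATF3, MYC, CD30 (TNFRSF8) and CCL17 among them. CCL22 did so on none and CD274 on 2. Of the 5 B cell genes measured, PAX5 and CD79B lay above it on all 6 arrays and MS4A1, CD22 and CD79A on none. All 7 T and NK cell, 5 myeloid and 6 fibroblast and epithelial markers lay below it on every array. Of the 49293 probe sets tested, 26607 also lay below it on all 6 arrays and 18581 lay above it on all 6. The highest background probe set read 7.18, 6.68 and 6.73 in BATF3 siRNA replicates 1, 2 and 3 and 7.11 to 7.32 in the controls. GC-rich background was therefore lower in BATF3 siRNA replicates 2 and 3 than in the other 4 arrays, and its part in the changes of dim probe sets was not tested. Background probe sets of lower GC count (3 to 15) averaged only 2.06 to 2.20 per array. Above or below background refers throughout to the highest background probe set. A probe set below it is therefore not shown to be absent.

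**Figure D1:**
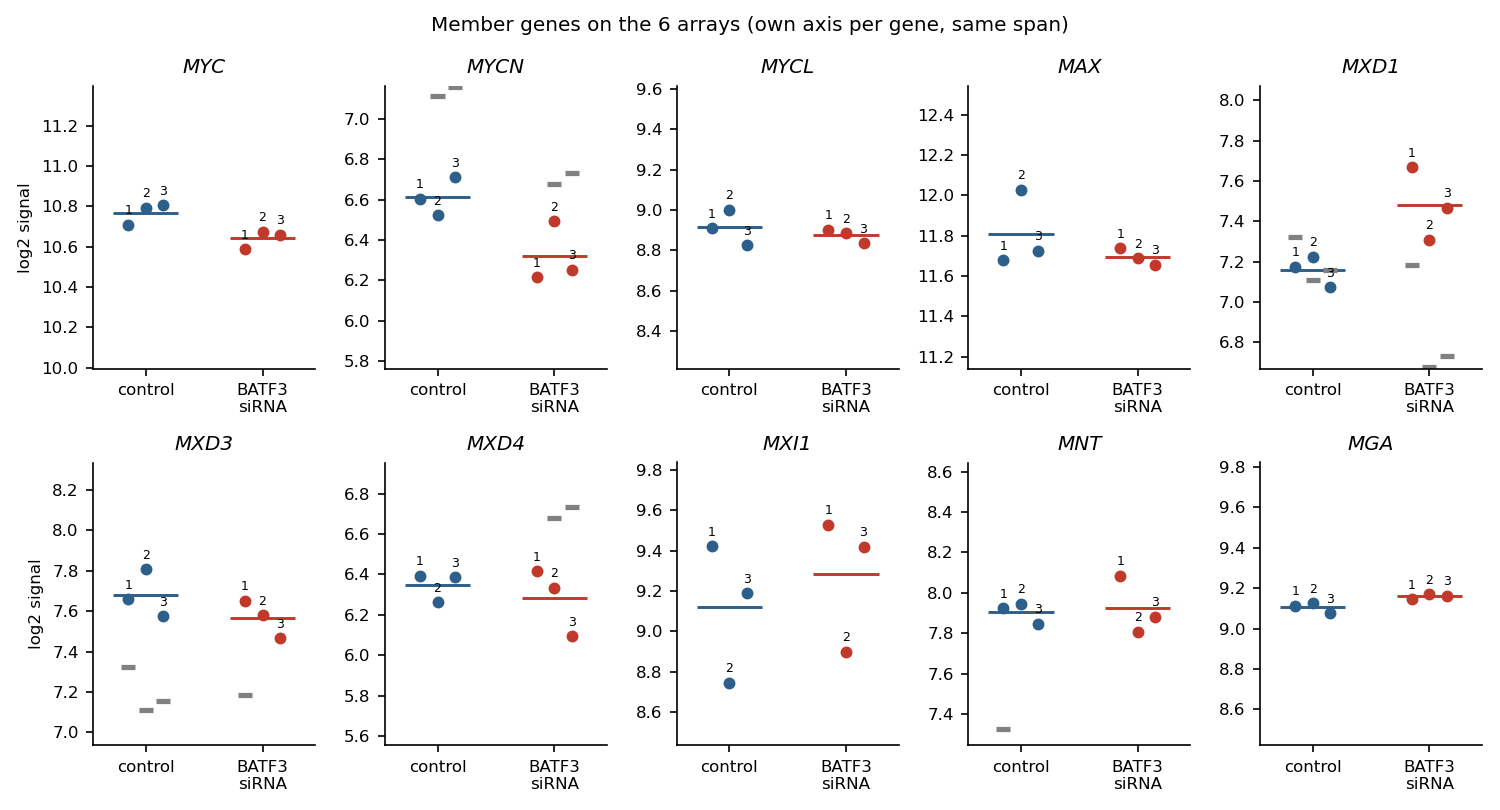
Log2 signal of the probe set that stands for each member gene, with the control siRNA arrays in blue, the BATF3 siRNA arrays in red, replicate numbers beside the points and lines at the group means. Grey bars give each array's highest background probe set where it falls within the plotted span, which is the same for every gene. MYC and MGA were tight within groups, MXI1 was low in replicate 2 of both groups, and MYCN and MXD4 lay under the background bars.

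MYC, the family member that drives ribosome production and cell growth, had 1 probe set. It read 10.59, 10.67 and 10.66 after BATF3 siRNA and 10.71, 10.79 and 10.81 after control siRNA. All 3 BATF3 siRNA arrays lay below all 3 controls, by a small margin. The change was −0.13 (95% confidence interval −0.32 to 0.062; limma adjusted p = 0.822), a ratio of 0.915. That interval runs from a ratio of 0.802 to 1.04, and the BATF3 ratio of 0.436 lies outside it. Since the spread behind it may be technical, the interval need not cover differences between cultures. MYC had a pooled SD within groups of 0.050, smaller than that of 94.9% of genes, and 67.7% of genes had a change of smaller size. A lower signal in such bulk RNA can come from fewer expressing cells or from less RNA per cell, which cannot be told apart.

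MYCN, a paralogue best known from neuroblastoma, lay under the highest background probe set on every array in all 4 of its probe sets. Its brightest probe set read 6.22, 6.49 and 6.25 after BATF3 siRNA and 6.60, 6.52 and 6.71 after control siRNA. The groups did not overlap, and replicate 2 of the siRNAs came within 0.029 of each other. That probe set changed by −0.29 (SE 0.10; limma adjusted p = 0.612), a larger change than in 95.1% of genes. Its other 3 probe sets changed by 0.0058 to 0.17 in the opposite direction. Averaged over the 4 probe sets the MYCN change was −0.0052. The direction of MYCN thus rested on 1 dim probe set.

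MYCL, the paralogue first found in lung cancer and known in dendritic cells, had 3 probe sets above background on all 6 arrays and 1 below it on all 6. The brightest read 8.90, 8.88 and 8.84 after BATF3 siRNA and 8.91, 9.00 and 8.83 after control siRNA. The groups overlapped, and the change was −0.040 (95% confidence interval −0.24 to 0.16; limma adjusted p = 0.954). Its direction turned without control replicate 2 (0.0048). The other 2 bright probe sets gave −0.070 and −0.097. The dim one gave 0.28, which turned the MYCL direction when it stood for the gene.

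MAX, the shared partner of every other member, had the most probe sets, 12, designed on 8 transcript records. Of these, 8 lay above background on all 6 arrays. The brightest, 11729189_x_at, read 11.74, 11.69 and 11.66 after BATF3 siRNA and 11.68, 12.03 and 11.73 after control siRNA. Control replicate 2 was the highest array and the groups overlapped. The change was −0.12 (95% confidence interval −0.36 to 0.13; limma adjusted p = 0.874), and it was −0.0081 without control replicate 2 and −0.18 without control replicate 1. The suffix x marks probes that can also match other transcripts, and without such probe sets the MAX change was −0.042.

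The 8 bright MAX probe sets split over control replicate 2. It was the highest array for 4 of them and the lowest for 2, with deviations from a probe set's own mean of −0.10 to 0.27. All pairs among the 12 MAX probe sets correlated over the 6 arrays at −0.97 to 0.94 (median −0.12). This is a description over few arrays whose independence the labels do not state. Changes of the 8 bright probe sets ran from −0.14 to 0.061. The MAX probe sets thus did not vary together from array to array.

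Among the 3 dim MAX probe sets, 11762234_a_at was apart from the rest. It read 5.67, 5.69 and 5.77 after BATF3 siRNA and 5.29, 5.31 and 5.31 after control siRNA. All BATF3 siRNA arrays were higher, with narrow groups. The change was 0.40 (SE 0.086; limma adjusted p = 0.351 over all probe sets), with the smallest p of any member probe set. It lay below the highest background probe set on every array. The other 2 dim MAX probe sets changed by 0.13 and 0.26 with overlapping groups.

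**Figure D2:**
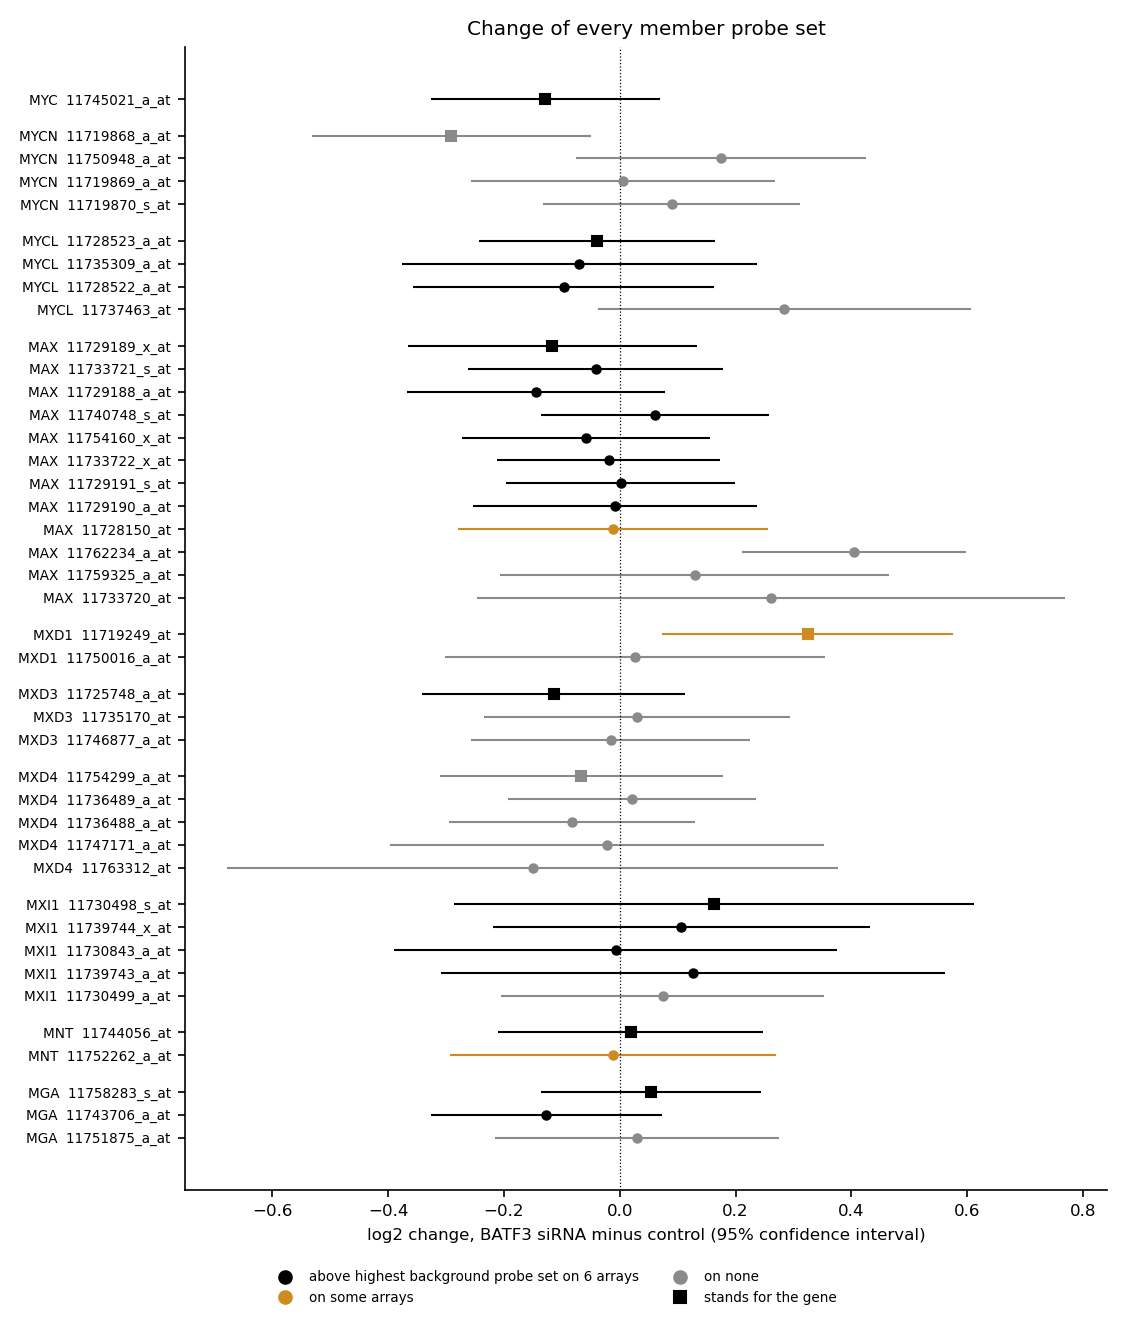
Log2 change (BATF3 siRNA minus control, n = 3 each) of all 41 member probe sets with its 95% confidence interval from limma. Squares mark the probe set that stands for a gene, and colours give on how many of the 6 arrays a probe set lay above the highest background probe set. The intervals of MYCN 11719868_a_at, MAX 11762234_a_at and MXD1 11719249_at lie off 0, and all 3 failed the adjusted threshold.

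MXD1, an antagonist that is induced as cells leave the cycle and differentiate, gave the largest gene-level change of the network. Its brighter probe set read 7.67, 7.31 and 7.47 after BATF3 siRNA and 7.17, 7.23 and 7.07 after control siRNA. All 3 BATF3 siRNA arrays were higher, with replicate 1 the highest. The change was 0.32 (SE 0.11; 95% confidence interval 0.078 to 0.57; limma adjusted p = 0.587), a ratio of 1.25, and 96.7% of genes had a change of smaller size. The second MXD1 probe set read 6.73, 6.20 and 6.34 against 6.36, 6.57 and 6.25, overlapped between groups and changed by 0.026. Averaged over both probe sets the change was 0.18. The brighter MXD1 probe set stood close to the array background and lay above the highest background probe set on 4 of 6 arrays. These were the BATF3 siRNA arrays and control replicate 2, while control replicates 1 and 3 lay below it. That background probe set read lower in BATF3 siRNA replicates 2 and 3 (6.68 and 6.73) than in the controls (7.11 to 7.32). Against the control mean MXD1 was 0.51, 0.15 and 0.31 higher in BATF3 siRNA replicates 1, 2 and 3. The part of background in this change was not tested.

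MXI1, an antagonist known as a target of hypoxia signalling, varied most within groups. Its brightest probe set read 9.53, 8.90 and 9.42 after BATF3 siRNA and 9.42, 8.75 and 9.19 after control siRNA. Replicate 2 was the lowest array of both groups, and the groups overlapped. The pooled SD of MXI1 was 0.34, larger than that of 98.7% of genes, where the median gene had 0.13. The change was 0.16 (95% confidence interval −0.29 to 0.61; limma adjusted p = 0.915), and it was −0.024 without control replicate 2 and 0.31 without control replicate 1. Without BATF3 siRNA replicates 1, 2 or 3 in turn it was 0.040, 0.35 and 0.094.

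The 5 MXI1 probe sets varied together, unlike those of MAX. Their pairs correlated over the 6 arrays at 0.835 to 0.967, again as a description of few arrays. In the 4 bright ones control replicate 2 lay 0.18 to 0.45 below the probe set's mean and BATF3 siRNA replicate 2 lay 0.25 to 0.41 below it. MXI1 probe sets changed by −0.0071 to 0.16 between siRNAs, less than this spread between arrays of the same siRNA.

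**Figure D3:**
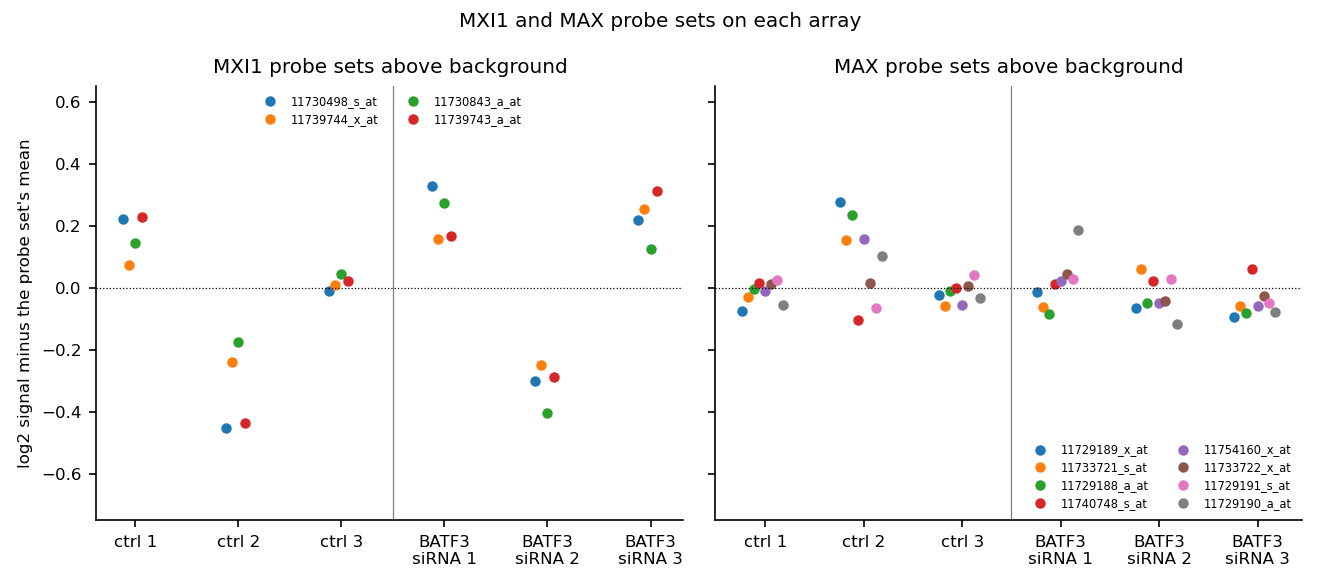
Log2 signal minus the probe set's own mean over the 6 arrays, for the 4 MXI1 and the 8 MAX probe sets above background on all arrays, 1 colour per probe set. MXI1 probe sets dip together in replicate 2 of both siRNAs, and MAX probe sets spread in control replicate 2 from −0.10 to 0.27.

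MXD3, the MXD protein linked to the S phase of proliferating cells, had 1 of its 3 probe sets above background on all arrays. It read 7.65, 7.58 and 7.47 after BATF3 siRNA and 7.66, 7.81 and 7.57 after control siRNA. The groups overlapped, with a change of −0.11 (95% confidence interval −0.33 to 0.11; limma adjusted p = 0.863). It was −0.050 without control replicate 2 and −0.064 without BATF3 siRNA replicate 3. MXD4, an antagonist of resting and differentiated cells, lay under the highest background probe set on every array in all 5 of its probe sets. Its probe set with the highest mean read 6.42, 6.33 and 6.09 against 6.39, 6.26 and 6.39. These overlapped, with a change of −0.066 (limma adjusted p = 0.937) that was 0.028 without BATF3 siRNA replicate 3.

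MNT, a broadly expressed repressor that pairs with MAX, read 8.09, 7.81 and 7.88 after BATF3 siRNA and 7.92, 7.95 and 7.85 after control siRNA. It had the smallest change of the network, 0.019 (95% confidence interval −0.20 to 0.24; limma adjusted p = 0.983), with overlapping groups. Its direction turned without BATF3 siRNA replicate 1 (−0.061) and without control replicate 3 (−0.010).

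MGA, a large repressor with both a T-box and a MAX-binding domain, was the most even member. Its brightest probe set read 9.15, 9.17 and 9.16 after BATF3 siRNA and 9.11, 9.13 and 9.08 after control siRNA. The groups did not overlap although they differed by only 0.054 (95% confidence interval −0.13 to 0.24; limma adjusted p = 0.929). A second bright probe set read 7.28, 7.15 and 7.23 against 7.39, 7.35 and 7.30. It also separated the groups, in the opposite direction (−0.13; limma adjusted p = 0.817). The 2 bright MGA probe sets therefore gave no shared direction, and the mean over its 3 probe sets was −0.014.

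Across the network, direction differed with brightness. Of the 20 member probe sets above the highest background probe set on all 6 arrays, 7 had a positive change (median −0.029). Of all 18581 such probe sets 53.3% did (median 0.0089). Of the 18 below that background probe set on all 6 arrays, 12 had a positive change (median 0.028). Of all 26607 such probe sets 44.9% did (median −0.018). These counts are descriptions, since probe sets of 1 gene share its RNA.

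Levels of different probe sets cannot be compared, so the balance of activators and antagonists was followed as deviations from the control mean within each array. The mean deviation of the 6 antagonists was 0.20, −0.036 and 0.029 in BATF3 siRNA replicates 1, 2 and 3 and 0.062, −0.034 and −0.028 in the controls. Replicate 1 of each siRNA was the highest of its group. Taken minus MYC, it was 0.38, 0.059 and 0.14 after BATF3 siRNA and 0.12, −0.057 and −0.065 after control siRNA. The difference of group means was 0.19, with SDs of 0.17 and 0.11, and the groups overlapped through control replicate 1. Without BATF3 siRNA replicate 1 the difference was 0.098. Taken minus MAX, it was 0.27, 0.087 and 0.18 against 0.19, −0.25 and 0.056, also overlapping. In BATF3 siRNA replicate 1, the array with the highest value, MYC stood at −0.18, MXD1 at 0.51 and MXI1 at 0.41 against their own control means.

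**Figure D4:**
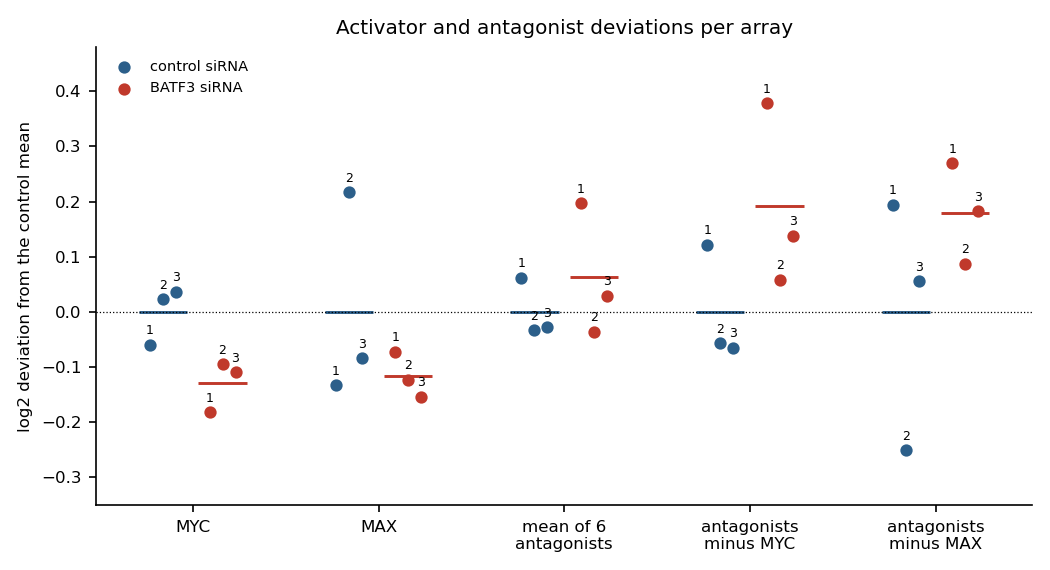
Log2 deviation from the control mean on each array for MYC, MAX, the mean of the 6 antagonist genes, and that mean minus MYC or minus MAX, with control siRNA arrays in blue, BATF3 siRNA arrays in red, replicate numbers beside the points and lines at the group means. For the antagonist mean minus MYC, BATF3 siRNA replicate 1 is highest at 0.38 and control replicate 1, at 0.12, lies within the BATF3 siRNA range.

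Genes that work with the network were followed in lists, where limma called no gene in either direction. The list around MGA held 3 genes at an unadjusted p under 0.05, the MYC-repressed genes held 2, and the other 5 lists held 0, against 7.15% of all genes. Over all genes 49.0% had a positive change and the median was −0.0027. In the MLX arm, which links MAX-like dimers to glucose sensing, 3 of 5 genes had a positive change (median 0.057). Its smallest p belonged to ARRDC4 at 0.25, which lay under the background, and to MLXIP, the MLX partner MondoA, at −0.16 (8.98 ± 0.11 against 9.15 ± 0.047, SD, n = 3 each). TXNIP, a target of MondoA chosen here after its values were seen, was at 0.14. Of the corepressors that MXD proteins and MNT recruit, 7 of 9 had a positive change (median 0.095), with SAP18 at 0.15 and SIN3A, the scaffold that MXD proteins bind, at −0.12. Their median was −0.044 when the most variable probe set stood for each gene.

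The complex of MGA and E2F6, a Polycomb-type repressor, held the widest changes of the factors around the network. Of 12 measured genes 7 had a positive change (median 0.048) and 5 had groups that did not overlap, 2 higher and 3 lower, where 12.1% of all genes had separate groups. TFDP2, a dimer partner of E2F proteins, read 10.39 ± 0.033 against 10.12 ± 0.097 (SD, n = 3 each), a change of 0.27 (limma adjusted p = 0.569). E2F6, the repressor E2F of the complex, read 7.08 ± 0.012 against 6.83 ± 0.035, a change of 0.25 (adjusted p = 0.569), close to the array background. EHMT2 and EHMT1, a pair of histone H3K9 methyltransferases chosen here after their values were seen, were at −0.27 and −0.18 with groups that did not overlap.

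MYC coactivators and partners had 6 of 15 positive changes (median −0.027), with WDR5 at −0.12 and EP400 at −0.12. In genes of MYC protein turnover 7 of 17 changes were positive (median −0.0066), with the kinase AURKA, known to stabilise MYCN protein, at 0.13 and the ubiquitin ligase STUB1 at −0.12. Among 28 measured MYC target genes 15 had a positive change (median 0.014), and all lay between −0.17 and 0.17. EIF4E, the cap-binding factor, was at 0.17 and CAD, an enzyme of pyrimidine synthesis, at −0.17, both with overlapping groups.

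Genes that MYC is known to repress had 6 of 12 positive changes and a median of −0.039, and they held the largest change of these lists. CDKN1A, the gene of the cyclin-dependent kinase inhibitor p21, read 8.03 ± 0.30 against 7.24 ± 0.054 (SD, n = 3 each), or 0.79 higher (SE 0.14; limma adjusted p = 0.226). Its controls (7.22, 7.30 and 7.20) stood close to the highest background probe set, which CDKN1A passed on 5 of 6 arrays. GADD45A, a DNA damage and stress gene, was at 0.36 (SE 0.090; limma adjusted p = 0.446). Both are also p53 targets. In 5 of the 12 genes every array lay under the highest background probe set. The list median ran from −0.094 to 0.21 over the alternative settings. Of the 7 list medians, that of the MGA and E2F6 complex alone kept 1 sign over those settings (0.0065 to 0.069). Leaving out 1 array turned 4 of them, at most to −0.045 for the MLX arm (without control replicate 1), 0.028 for protein turnover and −0.031 for MYC target genes (both without BATF3 siRNA replicate 2) and 0.049 for MYC-repressed genes (without control replicate 2).

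**Figure D5:**
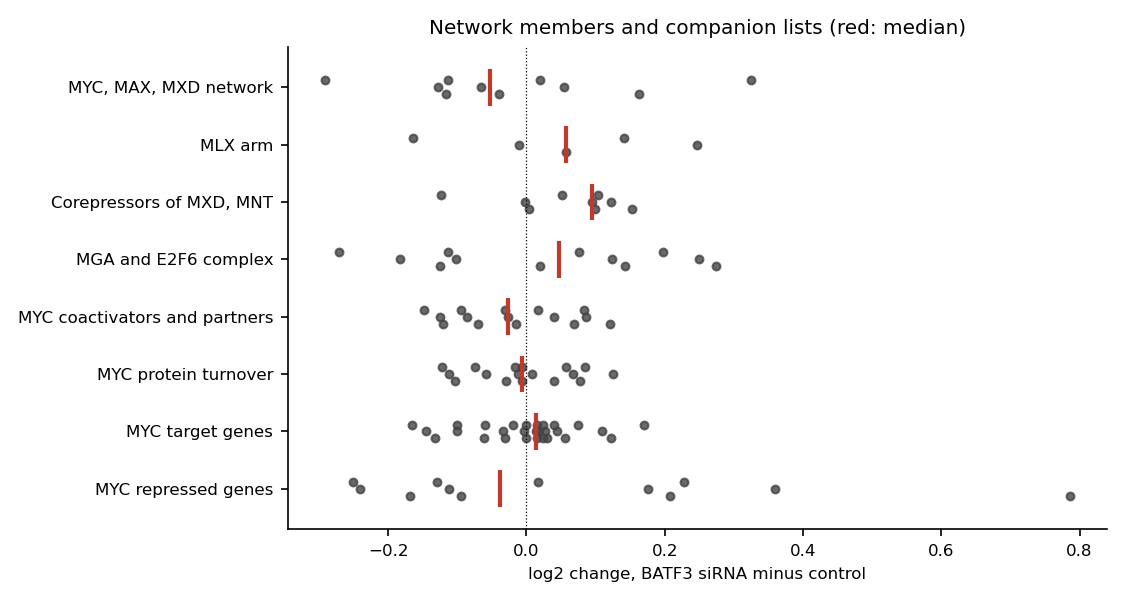
Log2 change (BATF3 siRNA minus control) of the 10 network genes and of each measured gene of the companion lists, 1 point per gene, with red bars at the medians. Points of the MYC target genes lie within 0.17 of 0 on either side, and CDKN1A at 0.79 is the rightmost point among the MYC-repressed genes.

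Genes whose levels followed MYC and MAX most closely over the 6 arrays were found by Pearson correlation among 9121 other genes above the median level. This is a description over few arrays whose independence the labels do not state. For MYC these genes were GOLM1 (0.978), a Golgi membrane protein, DHX35 (0.967), an RNA helicase, and RRBP1 (0.965), a protein of the rough endoplasmic reticulum. Their changes were −0.13, −0.063 and −0.14, as small as that of MYC. For MAX, taken as its brightest probe set 11729189_x_at, they were SRSF9 (0.998), NSUN5 (0.994) and STOML1 (0.993), each highest in control replicate 2. Among the 8 bright MAX probe sets that array was the highest for 4 and the lowest for 2. STOML1 (6.61 to 6.91) lay under the highest background probe set on every array. Correlations above 0.95 were reached by 139 genes with this MAX probe set and by 7 with MYC.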

How the data were processed

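Expression was measured on 6 Affymetrix PrimeView arrays, 3 for each siRNA. Values were deposited by the authors on a log2 scale, 1 per probe set and array, and their range gave the base of the logarithm. The submitters' processing notes name the R package affy, while the sources used here do not give the background correction, normalization and summarization. Of 49495 probe sets, 102 array controls and 100 spike-in probe sets were left out, and 49293 were tested. Symbols came from the platform annotation, which listed 1 gene for 45278 probe sets. RefSeq (GRCh38.p14) held 45208 of those gene identifiers and changed 0 symbols. Members were all probe sets that the annotation gives to a listed symbol alone.

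The test was two-sided and used lmFit and eBayes of limma 3.58.1 (R 4.3.3), as BATF3 siRNA minus control with no covariate. A first fit took every probe set. A second took 18244 genes, each represented by its probe set with the highest mean. Benjamini-Hochberg adjustment ran over each whole table, and a call needed an adjusted p under 0.05. Intervals are 95% confidence intervals from the same fits. Precision is limited by the number of arrays: a gene's change had a median standard error of 0.107. The fit was tested on simulated data. The members, the companion gene lists and the alternatives (normalization, filter, choice of probe set, variance model, replicate number or array background as a block, each array left out) were chosen with earlier results of these data known. From each list the text names any called gene, or otherwise the 2 with the smallest p, and it names the 3 genes most correlated with MYC and with MAX. Names added after the values were seen are said to be so.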

Additional observations from a re-analysis of the deposited data

How the results depend on the processing

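No member was called in any of the 168 fits of members under 17 alternatives (lowest limma adjusted p = 0.123), and 154 kept the direction. That count includes fits in which the direction could not turn. The filter on dim genes, the intensity trend and the replicate block leave a member's change as it was. MYC, MYCN and MXD1 kept theirs in every alternative run for them, and no member turned under quantile normalization, median centring or cyclic loess. MYC has only 1 probe set, so the choice of probe set could not turn it. For MYCN and MXD1 the most variable probe set is the one that already stood for the gene. With the mean of probe sets MYCN was at only −0.0052, and its direction rested on 1 dim probe set. The direction of MYCL turned for its most variable probe set (0.28), the mean of probe sets (0.019) and array weights (0.011), with values of −0.083 to 0.0048 when single arrays were left out. MAX turned for its most variable probe set (0.26) and the mean of probe sets (0.038). MXD3 turned for its most variable probe set (0.029), MNT likewise (−0.012) and MGA for the mean of probe sets (−0.014). MXD4 turned with array background as a block (0.070), which leaves BATF3 siRNA replicate 1 against the controls. With single arrays left out MXD4 ran from −0.13 to 0.028, MXI1 from −0.024 to 0.35 and MNT from −0.061 to 0.078. The cause was not tested. MYCN and MXD4 lay below the median level, so the filter on dim genes gave no value for them. The antagonist mean minus MYC was 0.38 with array background as a block, which leaves BATF3 siRNA replicate 1 against the controls, and ran from 0.098 to 0.26 with single arrays left out.

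In place of 3 genes, limma called 9 among genes above the median level, 5 with the most variable probe set and 25 with array weights. It called 12 with an intensity trend and robust prior, and 0 to 2 with an array left out. The count was 0 without BATF3 siRNA replicate 3 or control replicate 2, with 852 and 1446 at an unadjusted p under 0.05. In place of 5 probe sets limma called 11, 67 and 9 under the filter, weights and trend, and 0 to 2 with an array left out. BATF3 lost its call without BATF3 siRNA replicate 3 (−1.16, limma adjusted p = 0.0688) or control replicate 2 (−1.14, 0.0648). Its change lay within −1.24 to −1.14 over left-out arrays. With the background block, which leaves BATF3 siRNA replicate 1 against the controls, the BATF3 change was −1.10 and counts of calls are not given. Same-numbered replicates correlated in their deviations at 0.029, 0.15 and −0.025, and replicates of unlike number at −0.10 to 0.097. The labels do not say whether same-numbered arrays belong together, and these few values cannot decide it. With the replicate block MYC was at −0.13 (adjusted p = 0.835) and MXI1 at 0.16 (0.796), and again 3 genes were called.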
